A study of Rattus norvegicus with 10 samples.

Results

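The loaded right tibia of each of 5 rats was compared with the untreated left tibia of the same rat on a spotted oligonucleotide array, giving the 5 arrays LOAD 1 to LOAD 5 out of 10 arrays in the series. These arrays were taken by their titles alone, and no measured value entered the choice. All rats were female Wistar rats of 12 weeks with no genetic change. In the LOAD rats the right tibia was bent under anesthesia in a 4-point bending device in a single session of 300 cycles at 2 Hz with a peak setting of 60 N. In the 5 SHAM rats the pads stood opposite each other, so that the tibia was squeezed and not bent. The tibiae were taken 6 hours after the session. The ends, the periosteum and the marrow were removed, and RNA of each tibia shaft was labeled without pooling. Each value is the log2 of loaded over contralateral intensity, so that 1 is a doubling and 0 is no difference between the legs of a rat. Each array is 1 rat. The contralateral tibia shares the anesthesia and the circulation of its rat.

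In cortical bone the osteocytes lie embedded in mineralized matrix and are held to sense strain through fluid flow in their canaliculi. They pass signals on to osteoblasts, which lay down matrix, and to osteoclasts, which resorb it. Bone matrix holds small integrin-binding glycoproteins, among them MEPE and bone sialoprotein, that take part in mineralization. Early transcription factors such as EGR1, prostaglandins, nitric oxide and glutamate have been tied to the response of bone cells to load. A tibia shaft also carries blood vessels, remnants of marrow and the attachments of the muscles of the lower leg.

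The 5 LOAD arrays were unequal in ways that bear on every value below. The spread of the log2 ratios over all tested spots (SD) was 0.13 on LOAD 1, 0.41 on LOAD 2, 0.29 on LOAD 3, 0.40 on LOAD 4 and 0.40 on LOAD 5. On LOAD 1 the ratios thus spread least, and a sign there often rested on a very small ratio. With 1 array per rat, differences between legs and the scatter of an array cannot be told apart. The mean of these spreads was 0.33 ± 0.12 (SD, n = 5) in LOAD and 0.27 ± 0.05 (SD, n = 5) in SHAM, which did not differ beyond their scatter (exact permutation test, 2-sided, p = 0.381). The loaded tibia carried Cy3 on LOAD 1, LOAD 3 and LOAD 4 and Cy5 on LOAD 2 and LOAD 5. LOAD 4 with LOAD 5 correlated at -0.47 over all spots, and LOAD 2 with LOAD 5, which had the same dye orientation, at -0.31. The dyes are given by the labels and by the file headers, so the directions were kept. The RNA numbers in the headers are neighbors for the legs of 4 LOAD rats, but on LOAD 4 the loaded tibia has number 3 and the control number 26, while SHAM 4 has 25 and 4. The labels do not mention an exchange. Means without LOAD 4 are therefore given as well.

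Defining transcripts of bone were measured on these arrays. The probability that a channel carried signal was at least 0.5 in all 10 LOAD channels for Mepe, for the osteocyte peptidase gene Phex, for Ibsp, which encodes bone sialoprotein, for Sparc, the osteonectin gene, and for Spp1, the osteopontin gene. Although marrow had been removed, the same held for Lyz2, the lysozyme of neutrophils and macrophages, for Alas2, the first heme enzyme of red cell precursors, for Slc4a1, the anion exchanger of the red cell membrane, and for the osteoclast phosphatase Acp5. It held for none of the 8 lymphoid markers tested. Of all 4707 accessions tested 2383 met this demand, among them Gfap of the nerve and Schwann cell list and Lep of the adipocyte list. Signal alone thus does not show that a cell type was present. More cells of a type and more RNA per cell cannot be told apart in such bulk samples.

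In the fit used here, loading left no gene past the false discovery rate of 20%. Of 4707 accessions tested in limma, 0 passed in LOAD and the lowest adjusted p was 0.9998. The study itself reported 9 genes below this rate in the loaded tibia. It filtered spots more severely and modeled duplicate spots, which the deposited files hold fused. The part of these differences in the unlike outcome was not tested. At an unadjusted p under 0.05, 76 accessions had a ratio above 0 (1.61% of those tested) and 81 a ratio below 0 (1.72%), 157 in all (3.34%). Without LOAD replicate 5 the number at this unadjusted p was 365. Of the 4707 accessions 1153 had a gene name. Without any effect a share of 0.05 would fall under this unadjusted threshold, which is more than the 3.34% found. The values below are thus descriptions unless a test is named.

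Of 2381 accessions with a value on all 5 LOAD arrays and signal in all 10 channels, 32 had a ratio above 0 on every array (1.34%) and 33 a ratio below 0 on every array (1.39%), 65 in all (2.73%). Without the demand for signal the numbers were 85 (1.86%) and 83 (1.82%) of 4563, 168 in all (3.68%). Random signs would all agree on 5 arrays with a probability of 0.0625, which is above both of these shares. With only 4 arrays to agree, and LOAD replicate 5 left out, the numbers with signal were 188 and 155. Most of these differences were small. The median of the means was 0.14 for the 32 higher and -0.11 for the 33 lower accessions, 2 of the 32 and 3 of the 33 reached a mean of at least 0.5 in size, and 6 of the 32 and 0 of the 33 kept at least 0.1 in size on every array. The ratio smallest in size was that of LOAD 1 in 16 of the 33 lower and 8 of the 32 higher accessions. The SHAM mean of the same accessions was above 0 in 19 of the 32 and below 0 in 19 of the 33, where 47% and 53% of all accessions with signal had such SHAM means, and 1 of these 65 had the same sign on all 5 SHAM arrays. A gene name was at hand for 6 of the 32 and 8 of the 33.

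**Figure D1:**
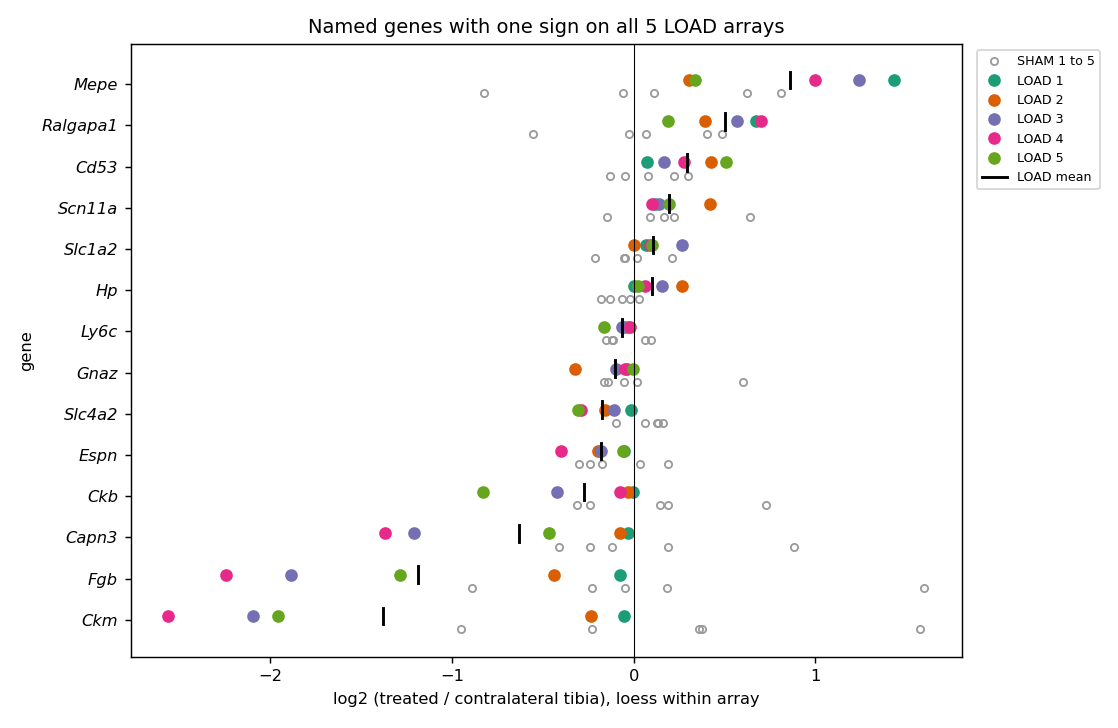
Log2 ratio of treated over contralateral tibia (x axis) for the 14 named genes (y axis) with the same sign on all 5 LOAD arrays and signal in all 10 LOAD channels. Filled points are single LOAD arrays, black bars are LOAD means and open points are the 5 SHAM arrays; Ckm, Fgb and Capn3 lie far to the left on LOAD 3, LOAD 4 and LOAD 5 and near 0 on LOAD 1, and Mepe is the gene farthest to the right.

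Among the higher genes Mepe, the matrix extracellular phosphoglycoprotein of osteocytes, came first. Its log2 ratio was 1.43 on LOAD 1, 0.30 on LOAD 2, 1.24 on LOAD 3, 1.00 on LOAD 4 and 0.34 on LOAD 5. All 5 rats had more signal in the loaded tibia, and the level of the difference fell into a high group of 3 arrays and a low pair. The mean was 0.86 ± 0.52 (SD, n = 5), a 1.82-fold ratio (unadjusted p = 0.00235 in limma, adjusted p = 0.9998), and 0.83 without LOAD 4. The 3 high arrays are those with the loaded tibia in Cy3, with a mean of 1.22, and the low pair are those in Cy5, with a mean of 0.32. The SHAM arrays had 0.81, 0.11, 0.62, -0.83 and -0.06, so that the groups overlapped. The highest SHAM values, on SHAM 1 and SHAM 3, were in Cy3 as well. SHAM 4, the lowest, and SHAM 2, in the middle, were in Cy5, and SHAM 5, at -0.06, was in Cy3. With a dye term the LOAD mean was 0.78. The part of the dye in the spread was not tested beyond this term. The difference between LOAD and SHAM was 0.73 (standard error 0.32, unadjusted p = 0.039 in limma). This difference includes LOAD 4 and SHAM 4, the pair with unmatched RNA numbers, and SHAM 4 held the lowest SHAM value. The 250 bases before the start of Mepe are printed because this gene had the highest mean of all named genes. They come from RefSeq on the GRCr8 build, with the core TGTGGT of the sites of RUNX factors (either strand) in capitals.
Mepe, chr14:5736859-5737108, minus strand: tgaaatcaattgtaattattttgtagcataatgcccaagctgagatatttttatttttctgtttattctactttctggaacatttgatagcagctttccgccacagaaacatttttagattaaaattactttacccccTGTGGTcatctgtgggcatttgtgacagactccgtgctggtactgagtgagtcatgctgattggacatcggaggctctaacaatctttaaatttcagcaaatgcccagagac
The hexamer was present in 14.5% of 33469 promoters of this length and in 2 of the 10 promoters at hand for the osteocyte and osteoblast lists.

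Ralgapa1, which encodes the catalytic subunit of a GTPase-activating complex for RAL proteins, had 0.67, 0.39, 0.57, 0.70 and 0.19 on LOAD 1 to LOAD 5. It was higher in the loaded tibia of every rat, and its lowest value was on LOAD 5. As with Mepe, the arrays with the loaded tibia in Cy3 had the higher mean, 0.65 against 0.29 in Cy5. The mean was 0.50 ± 0.21 (SD, n = 5; unadjusted p = 0.00282 in limma) and 0.46 without LOAD 4. SHAM 1 and SHAM 3, with 0.48 and 0.40, lay inside the LOAD range. These arrays and SHAM 5, with 0.07, were in Cy3. SHAM 2 and SHAM 4, with -0.03 and -0.56, were in Cy5, so that the SHAM values had the same order by dye. V2R2B, a putative pheromone receptor, and QFG-TN1, an olfactory receptor, had means of 0.67 ± 0.37 and 0.54 ± 0.42 (SD, n = 5), with signal in 7 of 10 LOAD channels each. These and Mepe and Ralgapa1 had been chosen by the study on the same arrays. By real-time RT-PCR the study reported a significant rise of Mepe in the loaded tibia. It found no significant change there of Ralgapa1, which it calls Garnl1, of V2R2B or of QFG-TN1.

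Cd53, a tetraspanin of the surface of leukocytes, had 0.07, 0.43, 0.17, 0.28 and 0.51 on LOAD 1 to LOAD 5. The values on LOAD 2 and LOAD 5, the pair in Cy5, were the highest. Its mean was 0.29 ± 0.18 (SD, n = 5; unadjusted p = 0.00606 in limma) and 0.29 without LOAD 4. The SHAM arrays ran from -0.13 to 0.30 and overlapped with it. Scn11a, a sodium channel of sensory neurons, had 0.11, 0.42, 0.14, 0.10 and 0.19, with 4 of 5 values within 0.1 of each other, and the SHAM mean of 0.19 equaled its LOAD mean of 0.19. The hemoglobin-binding plasma protein gene Hp, with a mean of 0.10 ± 0.11 (SD, n = 5), and the glutamate transporter gene Slc1a2, with 0.10 ± 0.10 (SD, n = 5), had values of 0.00 on LOAD 1 and on LOAD 2, respectively. Their sign on every array is thus formal.

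Only 3 of 2379 accessions with signal (0.126%) had LOAD arrays that did not overlap with the SHAM arrays, all with LOAD above SHAM. Arrays in random order would separate in this way, in either direction, with a probability of 0.00794. The 3 accessions were chosen after their values were seen, and none has a gene name in the tables used. X87885 had 0.11, 0.10, 0.12, 0.20 and 0.21 on LOAD 1 to LOAD 5 and a SHAM mean of -0.03, and AF306457 a LOAD mean of 0.15 ± 0.12 against a SHAM mean of -0.05 ± 0.07 (SD, n = 5 each). The third had a value of -0.02 on LOAD 5. The ratios behind this separation were small on every array.

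Among the lower genes Ckm, the muscle creatine kinase that regenerates ATP from phosphocreatine in fibers, had the lowest mean of those with the same sign in every rat. Its log2 ratio was -0.05 on LOAD 1, -0.23 on LOAD 2, -2.10 on LOAD 3, -2.56 on LOAD 4 and -1.96 on LOAD 5. The first pair of rats thus had nearly equal legs, and the other 3 rats had far less Ckm signal in the loaded leg. The mean was -1.38 ± 1.15 (SD, n = 5; unadjusted p = 0.00431 in limma, adjusted p = 0.9998) and -1.08 without LOAD 4. LOAD 1 and LOAD 2 were scanned together with SHAM 1 and SHAM 2, whose ratios were -0.95 and 1.57. With the scan batch as a block in the limma fit, 168 accessions had an unadjusted p under 0.05 in LOAD and 0 passed 20%. The part of the scan in the Ckm ratios was not tested beyond this block. Fgb, the fibrinogen beta chain gene of the liver, had -0.08, -0.44, -1.89, -2.24 and -1.29, again with LOAD 3, LOAD 4 and LOAD 5 far lower. By real-time RT-PCR the study could not detect this transcript in the tibiae, whatever their treatment. What the Fgb probe measured is therefore uncertain. Capn3, the muscle calpain, had -0.03, -0.08, -1.21, -1.37 and -0.46, with a mean of -0.63 ± 0.63 (SD, n = 5; unadjusted p = 0.0142 in limma) and -0.44 without LOAD 4. In these 3 genes LOAD 3 and LOAD 4 held the lowest pair of values. The SHAM arrays of Ckm, Fgb and Capn3 overlapped with the LOAD arrays through LOAD 1 and LOAD 2.

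The other lower genes had small means. Ckb, the brain form of creatine kinase, had 0.00, -0.03, -0.42, -0.07 and -0.83 and thus a mean of -0.27 ± 0.35 (SD, n = 5) that LOAD 5 and LOAD 3 carried. Slc4a2, the anion exchanger that osteoclasts use to balance acid secretion, had -0.01, -0.16, -0.11, -0.29 and -0.31, against a SHAM mean of 0.08. Its mean was -0.18 ± 0.12 (SD, n = 5; unadjusted p = 0.0295 in limma), and its difference from SHAM was -0.25 (unadjusted p = 0.027 in limma). Espn, an actin-bundling protein of stereocilia, had a mean of -0.18 ± 0.14, Gnaz, an inhibitory G protein subunit, -0.10 ± 0.13, and Ly6c, a surface antigen of leukocytes and endothelium, -0.07 ± 0.06 (SD, n = 5 each).

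**Figure D2:**
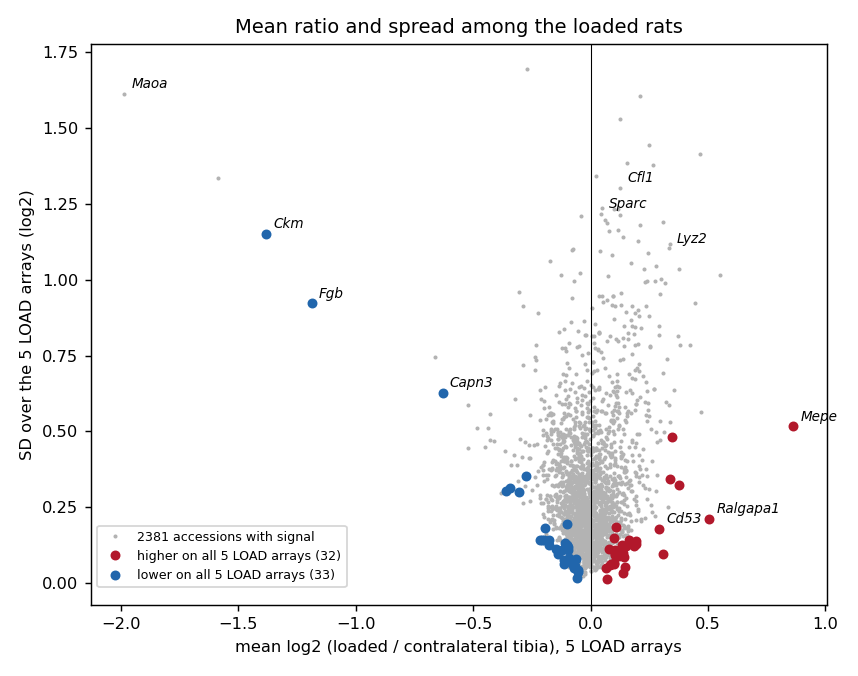
Mean log2 ratio of loaded over contralateral tibia on the 5 LOAD arrays (x axis) against its SD over these arrays (y axis) for the 2381 accessions with signal. Red and blue points have the same sign on every array; Maoa, Ckm and Fgb combine a low mean with an SD near or above 1, and Cfl1, Sparc and Lyz2 have a large SD with a mean near 0.

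Skeletal muscle transcripts as a group had lower ratios in the loaded tibia. Of 20 genes tested on the lists of sarcomere proteins, muscle energy enzymes and excitation and calcium handling, 16 had a mean below 0, where 53% of all accessions did and 47% had a mean above 0. Their median was -0.17 against -0.01 over all accessions. At an unadjusted p under 0.05 in limma 8 of the 20 were below 0 and 0 above, where 1.72% of all accessions were below. The median of the 20 genes was -0.06 on LOAD 1, -0.09 on LOAD 2, -0.24 on LOAD 3, -0.67 on LOAD 4 and -0.01 on LOAD 5. It was thus lowest on the array with the unmatched RNA numbers, and without LOAD 4 the median of the 20 means was -0.10. On the SHAM arrays the same median ran from -0.13 to 0.21.

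Of 5 sarcomere genes 4 had means below 0. Myl11, the regulatory light chain of fast myosin, had 0.10, -0.09, -2.81, -3.85 and -1.68, with signal in 4 of 10 LOAD channels, so that the size of its lowest ratios is uncertain. Tnni2, the fast troponin I, had -0.01, 0.07, -0.96, -0.85 and -0.39, and Tnni1, the slow troponin I, had 0.02, -0.51, -0.25, -0.78 and -0.02, both with signal in all 10 channels. The fast form was thus low on LOAD 3, LOAD 4 and LOAD 5, while the slow form was low on LOAD 2 and LOAD 4. Myh3, the embryonic myosin heavy chain, had a mean of -0.14 ± 0.50 and Myl3, the slow light chain, 0.07 ± 0.27 (SD, n = 5 each). Of the 4 cardiac forms only Myh6, the alpha myosin heavy chain of the heart, had signal in all 10 channels, with a mean of -0.04, and the other 3 had signal in 0 to 2 channels.

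Of 7 muscle energy enzymes 6 had means below 0. Eno3, the muscle enolase, had 0.03, 0.18, -1.24, -0.80 and -1.49 and a mean of -0.66 ± 0.75 (SD, n = 5; unadjusted p = 0.0347 in limma). Pgam2, the muscle phosphoglycerate mutase, had -0.09 on LOAD 1, -0.62 on LOAD 3, -1.77 on LOAD 4 and -0.82 on LOAD 5 and no usable value on LOAD 2, with signal in 3 of 10 channels. The muscle cytochrome oxidase subunits Cox8b and Cox6a2 had -0.17 ± 0.24 and -0.16 ± 0.32, and Car3, the carbonic anhydrase of slow fibers and fat, -0.06 ± 0.22 (SD, n = 5 each). Of the 8 genes of excitation and calcium handling, 6 had means below 0. Cacng1, a subunit of the muscle calcium channel, had 0.09, -0.09, -0.97, -0.64 and -0.20. The sodium channel Scn4a had -1.27 on LOAD 4 and 0.47 on LOAD 5, and the acetylcholine receptor genes Chrnb1, Chrng and Chrnd had means from -0.09 to 0.07. On LOAD 5 these receptor genes were above 0, at 0.18 to 0.41, while the chloride channel gene Clcn1 was at -0.45, so that the list had no common direction there.

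The SHAM arrays show how far muscle transcripts differed between legs without bending. On SHAM 2 the treated leg had more signal, with 2.45 for Myl11 and 1.57 for Ckm, and on SHAM 1 it had less, with -1.60 and -0.95. The SD over the SHAM arrays was 0.93 for Ckm and 1.47 for Myl11, against 1.15 and 1.71 over the LOAD arrays, and was thus of a similar size. The difference between LOAD and SHAM was -1.60 for Ckm (unadjusted p = 0.014 in limma), -0.69 for Capn3 (unadjusted p = 0.046) and -0.42 for Tnni2 (unadjusted p = 0.083), none of them past 20% after adjustment. Of the 3 myogenic regulators tested, none had signal in all 10 channels. Maoa, the monoamine oxidase A gene, troponin-C and Klc-C, a kinesin light chain, which the study had chosen, were also low on LOAD 3 and LOAD 4. Their means were -1.98 ± 1.61, -1.98 ± 1.66 and -1.06 ± 0.90 (SD, n = 5 each), with signal in 10, 5 and 8 of 10 LOAD channels, so that the size of the latter pair is uncertain. By real-time RT-PCR the study reported a tendency to lower Ckm and troponin-C in the loaded tibia and no significant change of Maoa and Klc-C.

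**Figure D3:**
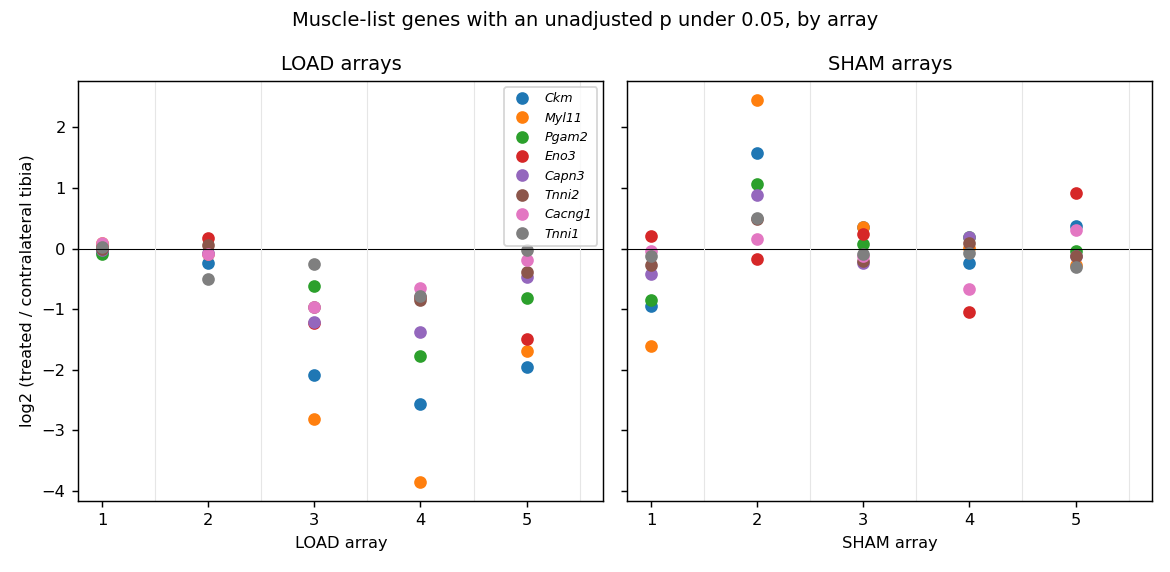
Log2 ratio of treated over contralateral tibia (y axis) on each LOAD array (left, x axis) and each SHAM array (right, x axis) for the 8 muscle-list genes with an unadjusted p under 0.05 in LOAD. Points lie near 0 on LOAD 1, spread downward on LOAD 3, LOAD 4 and LOAD 5, and spread upward on SHAM 2, where Myl11 reached 2.45.

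The promoters of 4 of these genes are printed to show what the muscle transcripts share in sequence. The 250 bases before each start come from RefSeq on GRCr8. Capitals mark the E-box CAGCTG, which reads the same on both strands, in Ckm, Myl11 and Pgam2. In Tnni2 they mark the E-box CACCTG, which reads CAGGTG on the strand printed. Pgam2 also holds CACCTG, which is not marked there. Such hexamers are among the sites bound by myogenic factors.
Ckm, chr1:88189211-88189460, plus strand: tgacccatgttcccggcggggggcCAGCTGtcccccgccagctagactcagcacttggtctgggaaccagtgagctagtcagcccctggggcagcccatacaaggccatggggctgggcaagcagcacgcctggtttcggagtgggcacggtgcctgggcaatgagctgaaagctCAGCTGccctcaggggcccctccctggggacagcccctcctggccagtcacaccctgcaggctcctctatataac
Myl11, chr1:191260039-191260288, plus strand: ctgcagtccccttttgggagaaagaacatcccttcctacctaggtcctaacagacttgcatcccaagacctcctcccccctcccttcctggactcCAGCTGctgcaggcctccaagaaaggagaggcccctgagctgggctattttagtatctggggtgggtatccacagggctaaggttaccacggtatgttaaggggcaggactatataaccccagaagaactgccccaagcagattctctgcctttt
Pgam2, chr14:84897875-84898124, minus strand: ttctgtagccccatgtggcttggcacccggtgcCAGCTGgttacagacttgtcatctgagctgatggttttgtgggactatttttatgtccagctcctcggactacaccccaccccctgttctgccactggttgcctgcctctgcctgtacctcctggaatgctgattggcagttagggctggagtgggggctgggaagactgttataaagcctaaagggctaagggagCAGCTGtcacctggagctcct
Tnni2, chr1:207024240-207024489, plus strand: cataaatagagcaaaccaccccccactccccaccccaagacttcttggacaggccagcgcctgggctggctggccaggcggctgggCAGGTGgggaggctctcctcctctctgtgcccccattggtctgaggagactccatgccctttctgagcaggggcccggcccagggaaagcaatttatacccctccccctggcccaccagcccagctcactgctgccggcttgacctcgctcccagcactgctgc
CAGCTG was in 8 of the 17 promoters at hand for the 20 muscle genes, against 12% of 33469 promoters of the same length, and in 0 of the 10 for the bone lists. CACCTG was in 9 of the 17 and in 4 of the 10 for the bone lists, against 15.9% of all. The letters describe the genes and say nothing of what happened in these tibiae.

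Bone cell genes gave no common direction besides Mepe. Of 5 osteocyte genes 4 had means above 0, with a median of 0.13 and 0.12 without LOAD 4. Cd44, a receptor for hyaluronan and osteopontin, had 0.34, 0.14, 0.29, 0.61 and -0.09, and Phex 0.32, 0.29, 0.12, 0.45 and -0.52. Both were above 0 on LOAD 1 to LOAD 4 and below 0 on LOAD 5. Gja1, the gap junction protein that links osteocytes, had a mean of 0.13 ± 0.32, and Pdpn, an early osteocyte marker, -0.22 ± 0.54 (SD, n = 5 each). Of 10 osteoblast and matrix genes 6 were above and 4 below 0, with a median of 0.03 and none with an unadjusted p under 0.05. Tnfrsf11b, which encodes osteoprotegerin, the decoy receptor that holds back osteoclasts, had 0.06, 0.04, 0.43, -0.21 and 0.75. Spp1 had 0.55, -0.81, 0.46, 0.02 and -0.18, and Pth1r, the parathyroid hormone receptor, a mean of -0.12 ± 0.35 (SD, n = 5).

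Several genes of bone matrix and marrow were among those that varied most over the 5 loaded rats, and they split the rats in the same way. Ibsp had 0.27, 1.15, 0.32, 0.99 and -1.26 on LOAD 1 to LOAD 5. Sparc had 0.02, 1.16, -0.05, 1.00 and -1.89, and Lyz2 had 0.14, 1.70, 0.33, 0.82 and -1.32. In these 3 genes LOAD 2 and LOAD 4 were high, LOAD 5 was low and LOAD 1 and LOAD 3 lay between. Other genes of the same lists, such as Spp1, Tnfrsf11b and Cd53 above, did not follow this order. Car2, the carbonic anhydrase of red cells and osteoclasts, had 1.49 on LOAD 2, 0.98 on LOAD 4 and -1.17 on LOAD 5. Alas2 had 1.10, 0.29 and -1.24 on these arrays, and the mitochondrial carrier gene Ucp2 had 0.95, 1.47 and -1.47. Slc4a1 differed in that LOAD 3 was low as well, at -1.02, and it varied even more over the SHAM arrays, from -2.30 on SHAM 2 to 2.43 on SHAM 5.

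Some genes used by every cell took part in this split, of which Cfl1, Hmgb1 and Rpsa were picked from the most variable genes. The ribosomal protein list did not follow it, with medians of -0.08 on LOAD 2, -0.23 on LOAD 4 and -0.02 on LOAD 5. Nor did the proteasome and ubiquitin list, with -0.13, -0.12 and 0.02. Cfl1, the actin-severing cofilin, had 1.12 on LOAD 2, 1.51 on LOAD 4 and -1.82 on LOAD 5. Hmgb1, a chromatin protein, had 1.24, 1.42 and -1.49, and Rpsa, a protein of the small ribosomal subunit, 0.76, 0.65 and -1.58. Gapdh followed more weakly, with 0.09, 0.67, -0.20, 0.25 and -0.54 on LOAD 1 to LOAD 5. Mgp, the matrix inhibitor of calcification, ran the other way, with -1.51 on LOAD 2, -1.18 on LOAD 4 and 0.42 on LOAD 5, and a probe named Rpl-1 had -1.39, -1.17 and 0.40.

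Of the 100 accessions with the largest SD over the LOAD arrays, 84 were above 0 on LOAD 2 and LOAD 4 and below 0 on LOAD 5, against 695 of all 2381 with signal (29.2%). Their selection by spread used these same values, so the count is a description. Their median was 0.02 on LOAD 1, 0.89 on LOAD 2, -0.12 on LOAD 3, 0.89 on LOAD 4 and -1.22 on LOAD 5. The median of their mean log2 intensity was 10.43, against 9.38 over all with signal, and of the 100 brightest accessions 36 showed the same pattern. LOAD 2 and LOAD 4 had opposite dyes, and LOAD 2 and LOAD 5 had the same dye. The part of dye, intensity and normalization in the split was not tested. On the SHAM arrays the median SD of these 100 accessions was 0.45, against 0.17 over all with signal. On the LOAD arrays, by which they were chosen, the median SD of the 100 was 0.95. Their median ratio on SHAM 1 to SHAM 5 was 0.23, -0.47, 0.06, -0.28 and 0.24, so that they split the SHAM rats too.

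**Figure D4:**
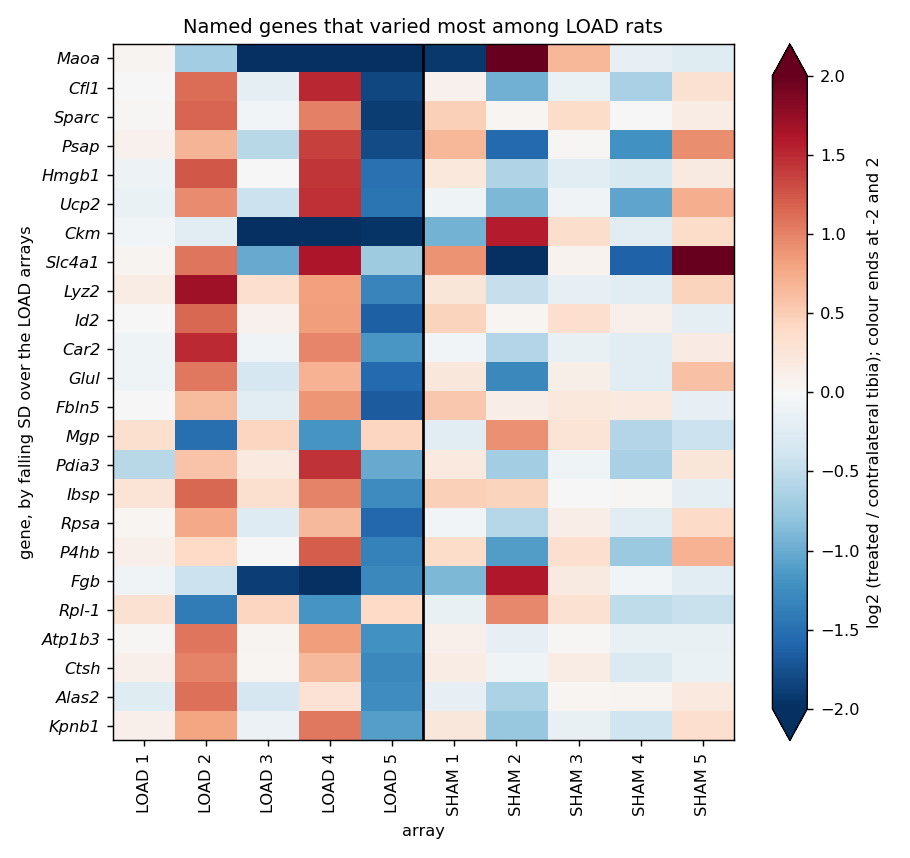
Log2 ratio of treated over contralateral tibia (color) on the LOAD and SHAM arrays (columns) for 24 of the named genes with signal whose SD over the LOAD arrays was largest (rows, SD falling downward). Most rows are red on LOAD 2 and LOAD 4 and blue on LOAD 5, while Maoa, Ckm and Fgb are blue on LOAD 3, LOAD 4 and LOAD 5, and Mgp and Rpl-1 are blue on LOAD 2 and LOAD 4.

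Other cell types of the shaft gave small differences. The myeloid list had 4 of 5 means above 0 and a median of 0.29, with Cd53 and the cytokine gene Il18 at an unadjusted p under 0.05, but Il18 had signal in 1 of 10 channels. The erythroid list had 2 of 5 above 0 and a median of -0.01. Of 7 endothelial genes 5 were above 0 with a median of 0.11. Selp, the P-selectin gene, which had the lowest p of the list, had 0.16, 0.00, 0.16, 0.25 and 0.11 on LOAD 1 to LOAD 5. Plvap and Kdr had higher means of 0.19 and 0.16, with signal in 0 and 2 of 10 channels. In the other direction, the endothelin gene Edn1 was below 0 on every LOAD array, with a mean of -0.17 and signal in 4 of 10 channels. Acp5 had 0.14, 0.52, -0.06, -0.57 and -1.11 and thus no common sign. Of 4 cartilage genes 3 were below 0, and none had signal in all 10 channels. The 8 nerve and Schwann cell genes had a median of 0.05.

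Genes tied to the sensing of load had no common direction. Of 9 early response genes 4 were above and 5 below 0, with a median of -0.02. Egr1, a zinc finger factor induced within minutes of many stimuli, had 0.42, -0.06, 0.31, 0.20 and 0.51. It was above 0 on 4 of 5 arrays, with a mean of 0.27 ± 0.22 (SD, n = 5; unadjusted p = 0.0089 in limma) and 0.29 without LOAD 4, and with means of 0.31 and 0.22 for the loaded tibia in Cy3 and in Cy5. Its SHAM mean was 0.12, and the difference of 0.16 had an unadjusted p of 0.224 in limma. Myc, a growth regulator, had 0.00 ± 0.12, Nos2, the inducible nitric oxide synthase, -0.07 ± 0.34, and Btg2, an antiproliferative early gene, -0.09 ± 0.59 (SD, n = 5 each), all with signal in all 10 channels. Ptgs2, the inducible cyclooxygenase, and Fosl1, a partner of JUN, had signal in 1 and 0 of 10 channels.

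Of 9 genes for adhesion and mechanosensing 6 were above 0, with a median of 0.05. Nptn, an adhesion protein of the immunoglobulin family, had 0.11, 0.75, 0.04, 0.40 and 0.23, above 0 in every rat, with signal in 9 of 10 channels. Its mean was 0.31 ± 0.29 (SD, n = 5; unadjusted p = 0.00999 in limma), and its difference from SHAM was 0.32 (unadjusted p = 0.042 in limma). Itgb1, the beta subunit of many matrix receptors, had 0.28, 0.58, 0.08, 0.16 and -0.25. Slc1a3, the glutamate transporter GLAST of osteocytes, stayed within -0.10 and 0.05. The IGF axis had a median of 0.05 over 7 genes. Igf2r, the receptor that clears IGF2, was above 0 in every rat with a mean of 0.36 ± 0.19 (SD, n = 5), but none of its 10 channels had signal. The TGF-beta and BMP list had a median of -0.04 over 12 genes, with Bmp4 at -0.16 ± 0.41 and Bmp2 at 0.19 ± 0.36 (SD, n = 5 each). Prostanoid and nitric oxide genes had a median of -0.02, glutamate signaling -0.01 and cAMP and calcium signaling 0.00, and neither Wnt pathway gene tested, Apc with 0.14 ± 0.23 and Gsk3a with 0.00 ± 0.20 (SD, n = 5 each), had an unadjusted p under 0.05.

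Housekeeping groups were close to 0 and shared a direction in places. All 9 ribosomal protein genes had means below 0, from -0.15 to 0.00, with a median of -0.04 that was -0.01 without LOAD 4, and none had an unadjusted p under 0.05. Their median was -0.23 on LOAD 4 and between -0.08 and 0.04 on the other 4 arrays. Of 11 genes of the respiratory chain and ATP synthase 10 were below 0, where 53% of all accessions were, with a median of -0.07 that was -0.04 without LOAD 4, and Cycs, the somatic cytochrome c, was the exception at 0.19 ± 0.27 (SD, n = 5). The 10 glycolytic genes had a median of 0.03, with Aldoa, the aldolase of muscle and red cells, at 0.09, 0.33, -0.62, 0.82 and -1.29. The 13 proteasome and ubiquitin genes had a median of 0.01, the 4 chaperones 0.07, and the 43 solute carriers -0.01 with 21 above and 22 below 0. None of these genes passed 20% after adjustment.

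**Figure D5:**
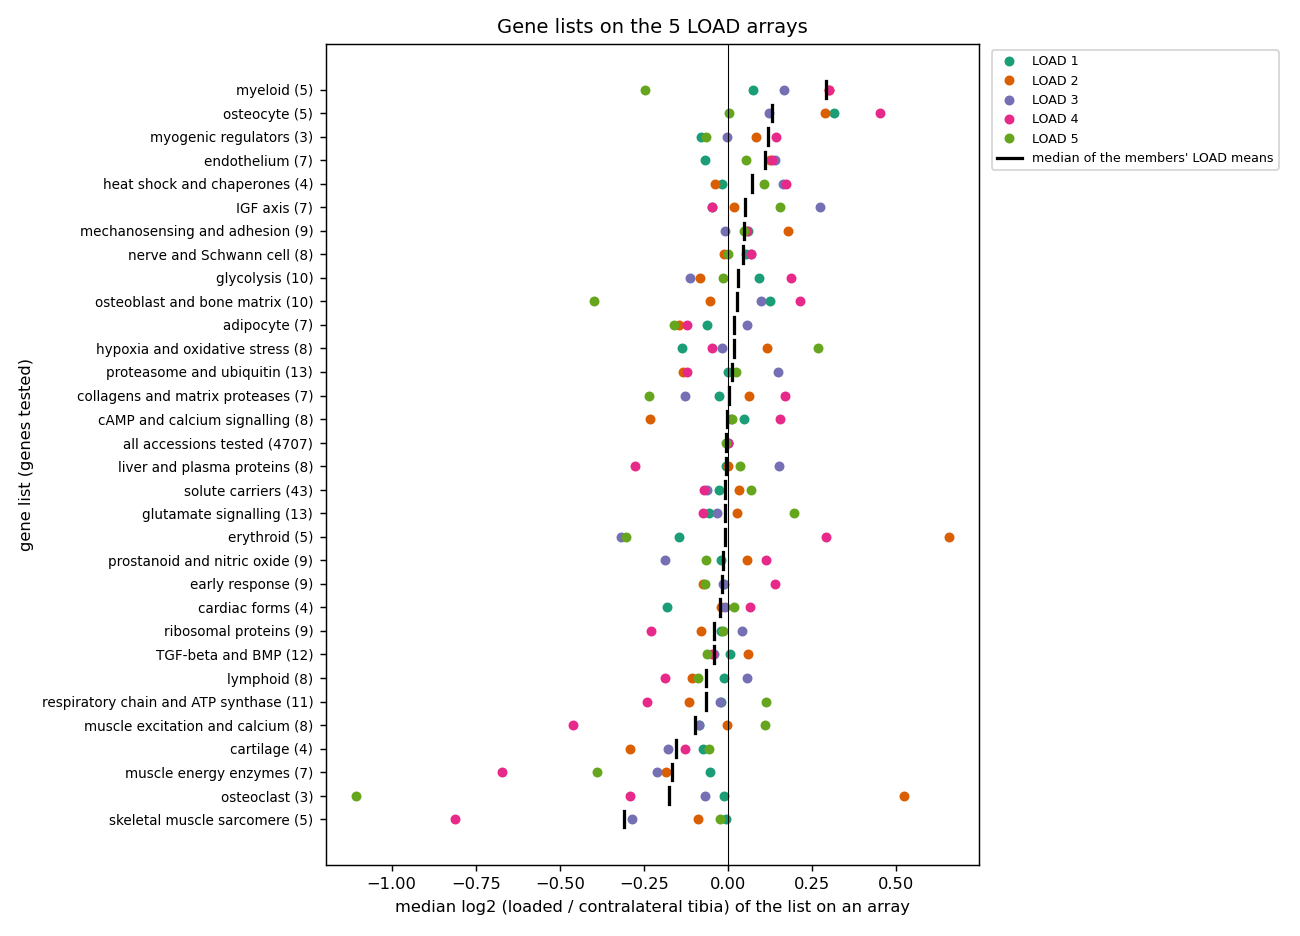
Median log2 ratio of loaded over contralateral tibia (x axis) of each gene list with at least 3 genes tested (y axis, number of genes in parentheses) on each LOAD array (colored points), with the median of the members' means (black bar). The muscle lists reach their lowest points on LOAD 4, the osteoclast list runs from -1.11 on LOAD 5 to 0.52 on LOAD 2, and the 4707 accessions together have a median near 0 on every array.

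The comparison with the SHAM rats gave no accession past 20% either (lowest adjusted p = 0.9986 in limma). At an unadjusted p under 0.05, 27 accessions stood higher (0.574%) and 43 lower (0.914%) in LOAD when set against SHAM, 70 in all (1.49%). Of the 65 accessions with the same sign on every LOAD array, 8 were among them, 3 higher and 5 lower, which the choice by the LOAD values favors. Of the 20 muscle genes 16 were lower in LOAD than in SHAM, where 52.2% of all accessions were, with a median difference of -0.21.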

How the data were processed

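Tibia shaft RNA of 10 rats was hybridized to 10 spotted arrays of 4803 oligonucleotides, with the legs of a rat in the Cy3 and Cy5 channels. The authors quantified spots with BlueFuse (version 2.0 per the file headers). The deposited files give an intensity per channel, fused over duplicate spots and not normalized, and a confidence and a probability of signal as a fraction. The deposited matrix holds log2 ratios of these intensities without normalization and served as a check.

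Spots below a confidence of 0.11 were treated as missing. Loess (span 0.3, 4 iterations) was then applied to the log2 ratios of each array. An accession could lack at most 1 of its 10 values. Means for LOAD and SHAM were fitted in limma 3.58.1 (R 4.3.3), with Benjamini-Hochberg adjustment over 4707 accessions and a false discovery rate of 20%. All 10 arrays share the estimate of spread. The fit was checked on simulated data. The sample group label of SHAM 1 names loading, and the array was kept in SHAM by its title. RefSeq accessions named 1177 of the probes and the methods 7, which left 3619 without a name. The authors state a cross-reactivity for these probes, so a name may cover another transcript. The number of arrays limits the precision.

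Named genes were those with the same sign on all 5 LOAD arrays and signal in all 10 channels (up to 15 in each direction), up to 4 genes of each of 34 lists with the lowest p, the genes of the study and Gapdh; other members of a list are named as examples after their values were seen. 1 gene is not reported here. The members and lists were chosen with earlier results of these data known. Alternatives changed the normalization, the filters, the dye and scan terms, the weights and the arrays included.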

Additional observations from a re-analysis of the deposited data

Results flagged for a closer look

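Among 133 genes checked, the ratio of 1 LOAD array stood apart from the other 4 in 9 genes by Dixon's test, which chance does in about 1 of 20 groups. LOAD 2 stood apart in 3 of them. Pdpn had -1.16 there against -0.15 to 0.17 on the others, the myelin gene Pmp22 -0.52 against -0.02 to 0.10, and Scn11a 0.42 against 0.10 to 0.19. LOAD 3 stood apart for Myog, a myogenic factor, with 1.47 against -0.11 to 0.14, and for Syn1, a synaptic vesicle gene, with 0.49 against -0.07 to 0.03. LOAD 4 stood apart for the lipoxygenase gene Alox5, with 0.37 against -0.06 to 0.06, and for Cd28, a costimulatory receptor of T cells, with -0.69 against -0.13 to -0.02. LOAD 5 stood apart for the plasminogen activator gene Plat, with -0.20 against -0.05 to 0.00, and for Rpl39, a ribosomal protein, with -0.45 against -0.12 to 0.02. Myog, Syn1 and Cd28 had signal in 2, 4 and 1 of 10 LOAD channels.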

How the results depend on the processing

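No alternative that left out an array brought a gene past 20%, in LOAD or against SHAM (0 to 0). Without normalization 9 accessions passed in LOAD and 2 against SHAM, and array weights, which gave LOAD 1 a weight of 5.97 and the other LOAD arrays 0.34 to 1.04, let 12 pass in LOAD, 6 higher, among them Mepe, Ralgapa1 and Egr1, and 6 lower, among them the early response gene Egr4 at -0.37. The counts at an unadjusted p under 0.05 in LOAD (157) became 80 with median centring, 25 without normalization, 63 when only accessions with signal were fitted, 92 with the LOAD arrays alone, 242 with the dyes of LOAD 2 exchanged and 329 with array weights, and against SHAM (70) they became 43, 9 and 26 in the first 3 of these and 193 with array weights. Leaving out each array in turn gave 116 to 365 in LOAD and 47 to 179 against SHAM, the highest without LOAD replicate 5. Against SHAM the count was 107 without LOAD replicate 1. The 32 accessions higher on every LOAD array became 8 with median centring, 0 without normalization, 18 with SHAM 1 counted as LOAD, 71 with the dyes of LOAD 2 exchanged, 85 without a minimum on signal and 80 without both arrays numbered 4, an alternative chosen after seeing the data. The 33 lower became 0 without normalization, 75 with the exchange, 83 without a minimum on signal and 81 without both arrays numbered 4. With 1 LOAD array fewer to agree, the counts were 50 to 188 and 67 to 155, the highest without LOAD replicate 5, and they were 32 and 33 without any 1 SHAM array. Of the genes with the same sign on every array, Hp turned to -0.0284 with median centring, -0.23 without normalization and -0.0049 with the dyes of LOAD 2 exchanged, Scn11a to -0.0248 and Slc1a2 to -0.10 without normalization, and Gnaz to 0.0257 with the exchange. The cause was not tested. Of 3531 values of named genes 198 changed sign and 52 moved by more than the SD between rats, and of 861 list medians 36 moved by more. Without normalization the arrays were centred elsewhere, with raw medians from -0.82 on LOAD 3 to 0.80 on LOAD 1.

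The replicate numbers were not used as pairs in the main fit. Same-numbered LOAD and SHAM arrays correlated at -0.41 to 0.07. The value of -0.41 belongs to the arrays numbered 4, the pair with unmatched RNA numbers. Whether an exchange of controls lies behind it was not tested. With the replicate block 119 accessions had an unadjusted p under 0.05 in LOAD and 65 against SHAM in limma, 0 past 20%. Spots at the limit of detection, such as Myl11 and Pgam2, leave the size of low ratios uncertain. The within-rat ratio of LOAD 4 rests on its label.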

Other observations

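Mgp and the probe named Rpl-1 had nearly the same ratio on every LOAD array, with 0.31 and 0.30 on LOAD 1, -1.51 and -1.39 on LOAD 2, 0.43 and 0.43 on LOAD 3, -1.18 and -1.17 on LOAD 4 and 0.42 and 0.40 on LOAD 5. The SHAM arrays ran from -0.58 to 0.92 for Mgp and from -0.51 to 0.97 for Rpl-1. Psap, the precursor of the lysosomal saposins, and P4hb, the protein disulfide isomerase of collagen folding, were high on LOAD 4, with 1.37 and 1.22, and low on LOAD 5, with -1.79 and -1.36. Fbln5, an elastic fiber protein, had 0.63 on LOAD 2, 0.88 on LOAD 4 and -1.66 on LOAD 5. These genes were chosen after their values were seen.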
